A study of Homo sapiens with 9 samples.

Results

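The genes described here encode ligands of the transforming growth factor beta (TGF-beta) family, their receptors, the proteins that keep the ligand latent, and a feedback inhibitor. They are the 10 rows of the deposited gene table named TGFB1, TGFB2, TGFB3, INHBA, TGFBR1, TGFBR2, LTBP1, LTBP2, LTBP3 and SMAD7, of 58735 genes in all. Expression was measured by RNA sequencing in GBM43, a patient-derived human glioblastoma cell line, grown in hyaluronic acid gel devices into which the cells can invade. There were 9 libraries in 3 groups of 3. The core group held cells that stayed in place in control devices, and the invasive group held cells cut away from the same kind of device after they had moved into the gel. The MK801 group held all cells of devices given 50 µM MK801, a blocker of NMDA-type glutamate receptors, with both fractions pooled because few cells had invaded. Control devices were given vehicle (DMSO) by one description and culture medium by another. Every group was of this 1 cell line. No description states whether the 3 libraries within a group were independent cultures, and p-values therefore reflect the spread among these libraries alone, which may be technical.

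TGF-beta is secreted as an inactive complex in which the mature ligand is held by its own propeptide, and latent TGF-beta binding proteins (LTBPs) tie that complex to the extracellular matrix. Integrins, proteases and thrombospondin release the ligand, which joins a type II to a type I receptor kinase, and the type I receptor phosphorylates SMAD proteins that enter the nucleus. In glioblastoma the pathway is known for effects on invasion, matrix production and immune evasion.

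The libraries held 15.6 to 54.4 M fragments assigned to genes (M for mega), recovered from the deposited FPKM, which scales fragments by gene length and by a library total. At an equal depth of 15.6 M fragments, core libraries detected 20329 to 21419 genes, invasive libraries 15964 to 19129, and MK801 libraries 15161, 19029 and 21506. The average fragment came from a gene with 49.8 to 51.1% GC in core libraries and 52.7 to 54.4% GC in invasive ones. In MK801 replicates 1 to 3 this figure was 54.2, 53.1 and 50.5%. MK801 replicates 1 and 3 therefore stood at opposite ends of both measures, which touches each result on that group. Of 12 glial and glioblastoma markers, 5 reached 1 FPKM in any library. VIM, CD44, EGFR and SOX2 were among them (SOX2 at 1.39 to 3.26 FPKM), whereas GFAP and NES stayed under 1 FPKM and OLIG2 was at 0 in every library. Of 10 fibroblast and pericyte markers, 8 reached 1 FPKM in some library, and their summed level was 45.3 to 84.2 FPKM in core, 233 to 426 in invasive and 47.6 to 136 in MK801 libraries. COL1A1 (mean 37.4 FPKM in core and 247 in invasive libraries) and PDGFRB (11.6 and 48.1) carried most of this sum. COL3A1 (0.413 and 2.72), ACTA2 (0.581 and 2.28), THY1 (1.46 and 5.30) and LUM (0.778 and 1.39) also had higher means in invasive libraries. PDGFRA (3.86 and 2.99), FAP (2.33 and 2.04) and RGS5 (0.505 and 0.0989) had lower means in invasive than in core libraries. DCN was at 0.277 to 0.827 FPKM, and none of the 10 was at 0 in every library. The summed level of 6 immune markers was 1.82 to 3.09 FPKM in core and 4.33 to 6.01 in invasive libraries, mainly CSF1R, with PTPRC at a mean of 0.0470 and 0.00182 FPKM. That of 5 endothelial markers was 1.36 to 1.55 and 1.79 to 5.34 FPKM, with CDH5 at a mean of 0.0295 and 1.78 FPKM and PECAM1 at 0.933 and 0.975. In bulk RNA, a change in how many cells express a gene and a change in its RNA per cell cannot be told apart.

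TGFB1 (ENSG00000105329, chromosome 19, 41301587 to 41353911, GRCh38 as are all coordinates) encodes the ligand TGF-beta 1 and was by far the most abundant ligand. Its level was 101, 108 and 70.8 FPKM in core replicates 1 to 3, 159.9, 397 and 153 in invasive replicates, and 345, 218 and 77.5 in MK801 replicates. All 3 invasive libraries were above all 3 core libraries, while MK801 replicate 3 lay within the core range and the other MK801 libraries lay above it. The group means were 93.4 ± 19.8 (SD, n = 3), 237 ± 139 and 213 ± 134 FPKM, a 2.54-fold difference between invasive and core. Differences were tested as log2(FPKM + 1), where those of genes with low FPKM come out too small. Invasive exceeded core by 1.21 (SE 0.53) on this scale, which did not pass the threshold of 0.05 (limma, adjusted p = 0.128, 9 libraries). Without invasive replicate 2 the difference was 0.76 (limma adjusted p = 0.371). Its level over all 9 libraries was at or above that of 98.2% of the 11845 genes tested. At least 5170 fragments lay behind each value, so counting error was small. Of its 3238 exonic bases, 215 also belong to exons of HNRNPUL1 on the opposite strand, and strand use in counting is not stated.

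TGFB2 and TGFB3, which encode the other TGF-beta ligands, were near the lower limit of detection. TGFB2 (ENSG00000092969, chromosome 1, 218346235 to 218444619) was at 0.572, 0.260 and 0.465 FPKM in core, 0.429, 1.33 and 0.486 in invasive and 0.206, 0.490 and 0.346 in MK801 libraries. These values rested on 15 to 123 fragments, and 26.6% of its exonic bases are shared with TGFB2-OT1, a transcript annotated on the same strand. TGFB3 (ENSG00000119699, chromosome 14, 75958099 to 75982991) was at 0.578, 0.403 and 0.424 FPKM in core, 0.413, 0.769 and 0.581 in invasive and 0.158, 0.382 and 0.560 in MK801 libraries, from 11 to 179 fragments. The groups overlapped for both genes in every comparison. Neither gene reached 1 FPKM in 3 libraries, so neither was among the genes tested. Without that filter, limma gave adjusted p = 0.499 for TGFB2 and 0.723 for TGFB3 in invasive versus core. TGFB1 thus made up 98.8 to 99.9% of the summed FPKM of the 3 TGF-beta ligand genes in each of the 9 libraries.

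INHBA (ENSG00000122641, chromosome 7, 41667168 to 41705834) encodes the beta A subunit whose dimer is activin A, a ligand that signals through the same SMAD proteins as TGF-beta. It was at 2.05, 4.05 and 2.91 FPKM in core, 1.14, 1.51 and 1.14 in invasive and 1.55, 1.57 and 4.82 in MK801 libraries. Its pattern ran opposite to that of TGFB1, with every invasive library below every core library and MK801 replicate 3 the highest of all. The core mean was 3.00 ± 1.00 FPKM, the invasive mean 1.26 ± 0.216 and the MK801 mean 2.65 ± 1.88, so that core was 2.38 times invasive. Invasive was below core by a log2 difference of -0.80 (SE 0.33, limma adjusted p = 0.120). All 3 MK801 libraries were above the 3 invasive ones, but replicates 1 and 2 only narrowly, and the log2 difference of 0.58 (SE 0.33) did not pass (limma adjusted p = 0.764). The level of TGFB1 was 24.4 to 49.2 times that of INHBA in core and 134 to 263 times in invasive libraries, and 223, 139 and 16.1 times in the MK801 replicates.

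**Figure D1:**
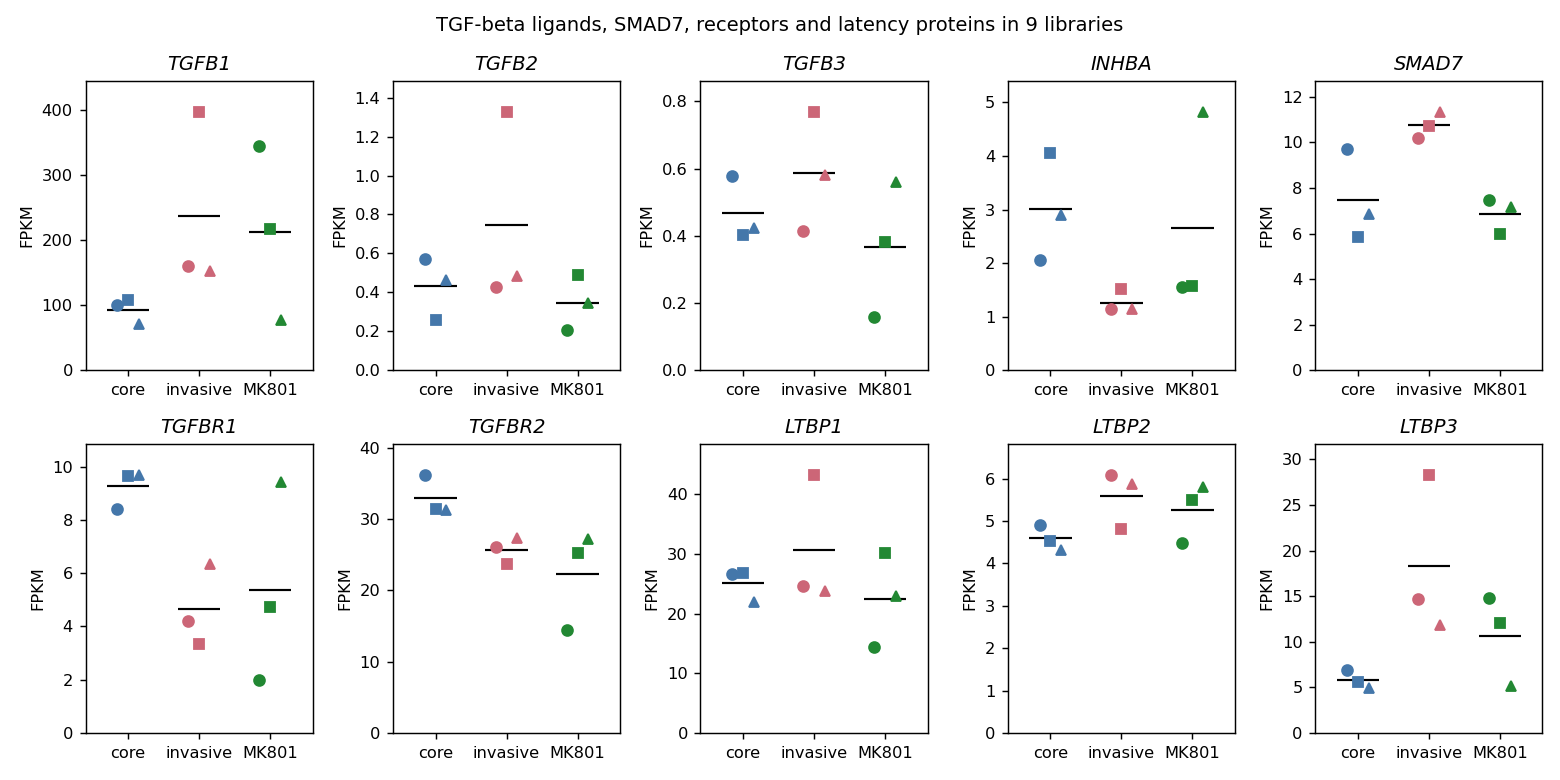
FPKM of the 10 genes (vertical axes, each from 0) in core, invasive and MK801 libraries. Points are libraries (circle, square and triangle for replicates 1, 2 and 3) and lines are group means. TGFB1 and LTBP3 are higher in all 3 invasive than in all 3 core libraries, TGFBR1, TGFBR2 and INHBA lower, and MK801 replicate 3 (triangle) lies near the core libraries for TGFB1, TGFBR1 and LTBP3.

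TGFBR1 (ENSG00000106799, chromosome 9, 99104038 to 99154192) encodes the type I receptor, the kinase that phosphorylates SMAD2 and SMAD3. It was at 8.42, 9.65 and 9.70 FPKM in core, 4.21, 3.35 and 6.35 in invasive and 2.00, 4.71 and 9.44 in MK801 libraries. Invasive and core libraries did not overlap, and the MK801 libraries spread from below the lowest invasive library to within the core range. The means were 9.26 ± 0.723, 4.64 ± 1.54 and 5.38 ± 3.76 FPKM, so that core was 2.00 times invasive. The log2 difference was -0.90 (SE 0.39, limma adjusted p = 0.126) for invasive minus core and -0.86 (SE 0.39, limma adjusted p = 0.235) for MK801 minus core.

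TGFBR2 (ENSG00000163513, chromosome 3, 30606502 to 30694142), the type II receptor that binds TGF-beta first, was the more abundant receptor. It was at 36.2, 31.4 and 31.3 FPKM in core, 26.0, 23.7 and 27.4 in invasive and 14.4, 25.2 and 27.1 in MK801 libraries. Every core library was above every invasive and every MK801 library. The means were 33.0 ± 2.80, 25.7 ± 1.86 and 22.3 ± 6.86 FPKM. The log2 difference was -0.35 (SE 0.25, limma adjusted p = 0.30) for invasive minus core and -0.59 (SE 0.25, limma adjusted p = 0.235) for MK801 minus core. With an equal FPKM total in every library they were -0.71 and -0.97, and with recovered gene totals -0.64 and -0.87. As both receptors were lower, but TGFBR1 by more, the ratio of TGFBR2 to TGFBR1 was 3.23 to 4.30 in core libraries and 4.31 to 7.07 in invasive ones. MK801 replicates 1 to 3 had ratios of 7.21, 5.36 and 2.88. The lowest invasive ratio was barely above the highest core ratio.

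LTBP1 (ENSG00000049323, chromosome 2, 32946972 to 33399509) and LTBP3 (ENSG00000168056, chromosome 11, 65538805 to 65558930) encode proteins that bind the latent ligand covalently and anchor it in the matrix. LTBP1 was at 26.7, 26.9 and 22.0 FPKM in core, 24.6, 43.3 and 23.8 in invasive and 14.4, 30.1 and 22.9 in MK801 libraries. Its groups overlapped in every comparison, with invasive replicate 2 high and MK801 replicate 1 low. The log2 difference between invasive and core was 0.22 (SE 0.31, limma adjusted p = 0.584), and it was -0.05 without invasive replicate 2.

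LTBP3 had the smallest p of the genes described here in invasive versus core. It was at 6.89, 5.59 and 4.89 FPKM in core, 14.7, 28.3 and 11.8 in invasive and 14.9, 12.1 and 5.09 in MK801 libraries. All invasive libraries were above all core libraries, and MK801 replicate 3 again lay in the core range. The means were 5.79 ± 1.01, 18.3 ± 8.82 and 10.7 ± 5.025 FPKM, a 3.16-fold difference between invasive and core. The log2 difference was 1.42 (SE 0.39, limma adjusted p = 0.103).

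LTBP2 (ENSG00000119681, chromosome 14, 74498170 to 74612378), a microfibril-associated relative that does not bind latent TGF-beta, varied least. It was at 4.92, 4.54 and 4.33 FPKM in core, 6.10, 4.81 and 5.88 in invasive and 4.49, 5.49 and 5.81 in MK801 libraries, so that its highest value was 1.41 times its lowest. For comparison, this ratio was 5.80 for LTBP3 and 5.61 for TGFB1. Within a library, where scaling between libraries cancels, LTBP3 made up 15.1 to 17.9% of the summed FPKM of the 3 LTBP genes in core and 28.5 to 37.1% in invasive libraries. This share was 44.1, 25.3 and 15.1% in MK801 replicates 1 to 3. LTBP1 held 69.3 to 72.6% in core libraries, 54.3 to 57.4% in invasive ones, and 42.6, 63.2 and 67.7% in the MK801 replicates. TGFB1 was 2.27 to 2.92 times the summed LTBP level in core and 3.52 to 5.20 times in invasive libraries, and 10.2, 4.57 and 2.30 times in the MK801 replicates. With 3 libraries against 3, an exact permutation test cannot give p below 0.1, so these ratios are given as values. A dependence on the GC content of transcripts, described below, does not cancel within a library. LTBP3 and TGFB1 have 64.7 and 61.4% GC against 47.9% for LTBP1, and TGFBR2 has 47.2% against 39.7% for TGFBR1. No ratio was computed from GC-corrected values.

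**Figure D2:**
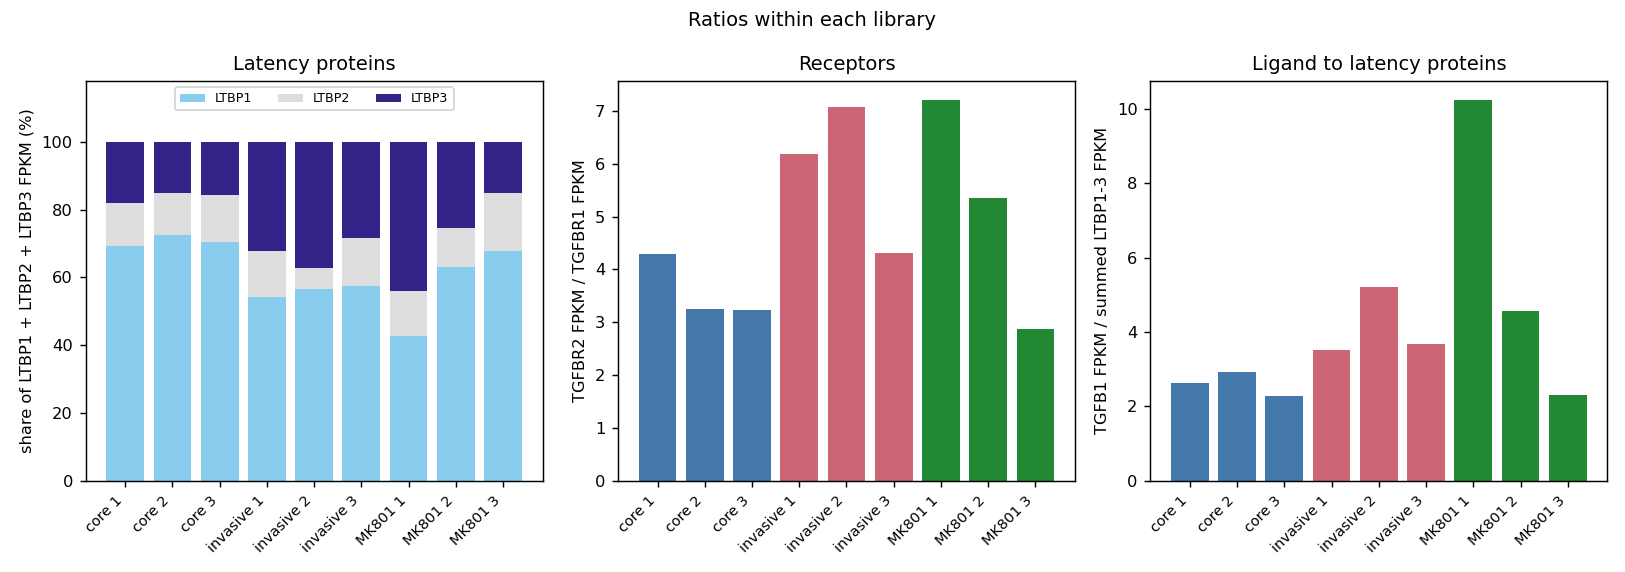
Ratios of FPKM within each of the 9 libraries (horizontal axes). The left panel gives the share of LTBP1, LTBP2 and LTBP3 in their sum (%), the middle panel TGFBR2 divided by TGFBR1, and the right panel TGFB1 divided by the sum of the 3 LTBP genes, with colours for the groups. The LTBP3 share is 15.1 to 17.9% in core and 28.5 to 37.1% in invasive libraries, and MK801 replicate 3 resembles the core bars in each panel. All ratios use the deposited FPKM, without correction for GC content.

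SMAD7 (ENSG00000101665, chromosome 18, 48919853 to 48952052) encodes an inhibitory SMAD that TGF-beta induces and that blocks the type I receptor. It was at 9.72, 5.87 and 6.87 FPKM in core, 10.2, 10.7 and 11.3 in invasive and 7.48, 5.98 and 7.14 in MK801 libraries. Invasive libraries were the 3 highest and lay close together, and core replicate 1 came next. Unlike for TGFB1, TGFBR1 and LTBP3, the MK801 libraries lay close together too. The means were 7.48 ± 2.00, 10.8 ± 0.572 and 6.87 ± 0.786 FPKM. The log2 difference was 0.49 (SE 0.22, limma adjusted p = 0.127) for invasive minus core and -0.58 (SE 0.22, limma adjusted p = 0.477) for MK801 minus invasive. With every library scaled to the same FPKM total, the first of these was 0.16 (limma adjusted p = 0.674).

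The first comparison asked how invasive cells differed from core cells of control devices. Among the 8 genes tested, TGFB1, LTBP3 and SMAD7 were higher and TGFBR1, TGFBR2 and INHBA lower with no overlap between the groups, which makes 6 of 8. Over all genes tested, 64.8% did not overlap (32% higher and 32.8% lower), so a count of 6 of 8 is close to the background. Limma on all 9 libraries called 0 of the 8, as it called 0% of all genes, with 5 of the 8 and 37.7% of all genes at an unadjusted p under 0.05. Limma-voom, a weighted form of the test run on recovered fragments, called 0 too. With the widely spread MK801 libraries left out, a limma fit of the 6 control libraries called 5 of the 8, beside 52.2% of all genes. In that fit of 6 libraries TGFB1 (limma adjusted p = 0.021), LTBP3 (adjusted p = 0.0053) and SMAD7 (adjusted p = 0.048) rose, and TGFBR1 (adjusted p = 0.0076) and INHBA (adjusted p = 0.014) fell in invasive libraries, whereas TGFBR2 did not pass (adjusted p = 0.086). With all 9 libraries and the replicate number as a block, limma called 1 of the 8 (LTBP3), beside 21.3% of all genes. Leaving out MK801 replicate 3 from the 9-library fit gave 4 of 8 (TGFB1, LTBP3, TGFBR1 and INHBA) and leaving out MK801 replicate 1 gave 2 (LTBP3 and TGFBR1), beside 41.3% and 39.5% of all genes.

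On the log2(FPKM + 1) scale, the order of these differences followed the GC content of the transcripts. With 0.1 FPKM added in place of 1, INHBA (-1.15) fell more than TGFBR1 (-1.03). TGFB1 and LTBP3 have 61.4 and 64.7% GC and SMAD7 has 56.7%, whereas TGFBR1, INHBA and TGFBR2 have 39.7, 45.5 and 47.2%. Over all genes tested, the median log2 difference between invasive and core was 0.75 for the 1719 genes with over 60% GC and -0.80 for the 1285 genes with under 40% GC. LTBP2, at 61.0% GC, differed by 0.23 (SE 0.19, limma adjusted p = 0.345), below that median. With each library's trend over GC content removed, the difference was 0.51 (SE 0.33) for TGFB1, 0.67 (SE 0.20) for LTBP3, -0.47 (SE 0.26) for INHBA, -0.18 (SE 0.18) for TGFBR1, -0.16 (SE 0.18) for TGFBR2 and -0.05 (SE 0.24) for SMAD7. All 6 log2 differences were thus moved toward 0 by over 1.5 times, SMAD7 past it, and LTBP2 turned from 0.23 to -0.45. In that fit of 9 libraries limma called 0 of the 8 genes and 0% of all genes. In the 6 control libraries alone, after the same correction, LTBP3 was the 1 gene of the 8 that passed (limma adjusted p = 0.040), beside 17.2% of all genes, and TGFB1 did not (adjusted p = 0.191).

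**Figure D3:**
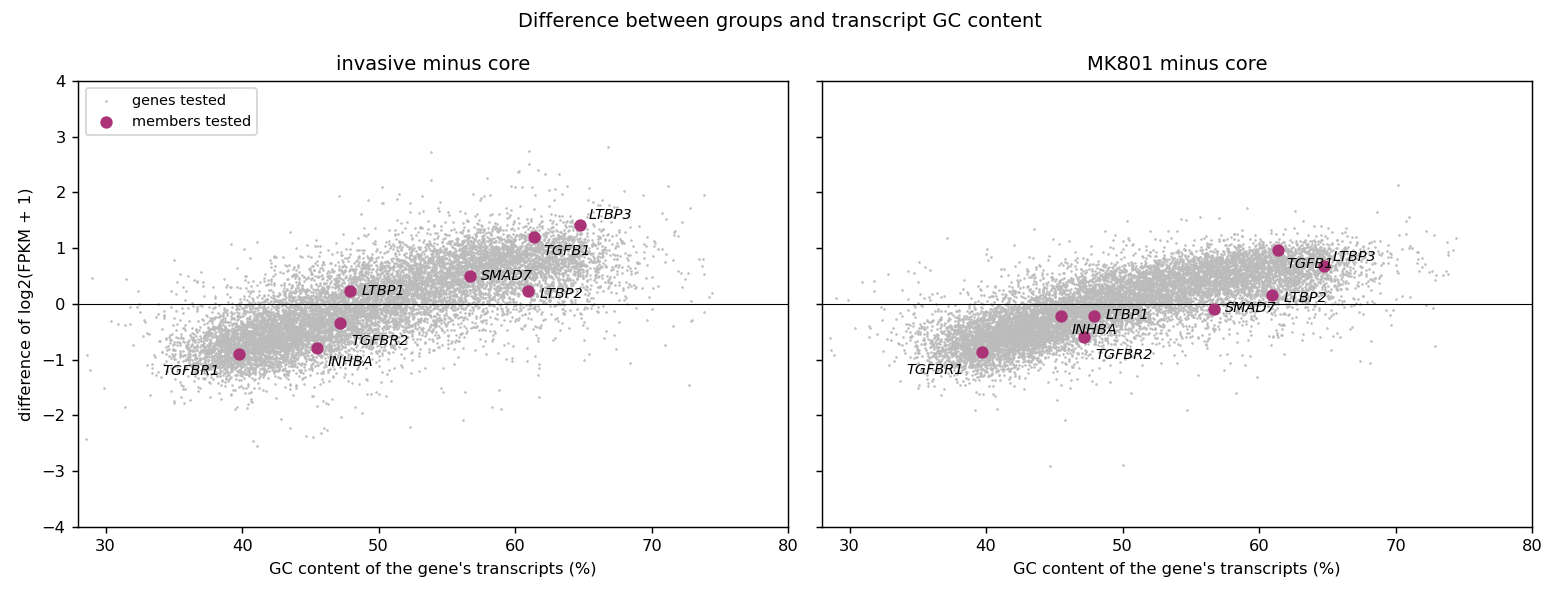
Difference of log2(FPKM + 1) between groups (vertical axis) against the GC content of each gene's transcripts (horizontal axis, %) for the 11845 genes tested (grey) and the 8 tested genes of this family (purple), in invasive minus core and MK801 minus core. The grey cloud climbs with GC content, and TGFBR1 at 39.7% GC lies at its low end and LTBP3 at 64.7% GC near its high end in the left panel.

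The sequences before the start sites of TGFB1 and LTBP3, the genes with the largest positive differences, and of INHBA, which was lower in invasive libraries, are shown as examples of windows rich and poor in CG dinucleotides, in capitals. The runs are from RefSeq on GRCh38.p14, 5′ to 3′ on the gene's strand, cut where an annotated exon begins. They cover chr19:41353923-41354168 for TGFB1, chr11:65558360-65558603 for LTBP3 and chr7:41703109-41703340 for INHBA, all on the minus strand.
TGFB1: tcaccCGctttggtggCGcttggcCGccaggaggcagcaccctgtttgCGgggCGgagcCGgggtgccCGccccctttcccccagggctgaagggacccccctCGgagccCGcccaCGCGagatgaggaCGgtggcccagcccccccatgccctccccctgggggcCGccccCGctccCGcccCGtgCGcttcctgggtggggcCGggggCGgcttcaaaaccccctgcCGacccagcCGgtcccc
LTBP3: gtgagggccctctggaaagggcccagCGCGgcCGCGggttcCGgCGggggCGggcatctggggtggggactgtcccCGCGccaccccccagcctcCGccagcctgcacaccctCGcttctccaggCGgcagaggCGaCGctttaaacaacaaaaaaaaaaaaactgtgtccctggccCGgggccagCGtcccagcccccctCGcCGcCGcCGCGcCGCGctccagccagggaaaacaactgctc
INHBA: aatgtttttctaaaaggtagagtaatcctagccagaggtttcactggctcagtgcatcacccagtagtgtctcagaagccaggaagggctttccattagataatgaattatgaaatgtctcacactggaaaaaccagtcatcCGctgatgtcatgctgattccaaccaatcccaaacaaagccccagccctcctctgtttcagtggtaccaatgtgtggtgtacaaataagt
The runs hold 21, 23 and 1 CG dinucleotides in 246, 244 and 232 bases, with 77.2, 70.5 and 44.0% GC. Other transcripts of LTBP3 and INHBA start further upstream, so both of these runs lie within the annotated gene. The contrast is no rule for these genes: TGFBR1, with the largest negative difference of log2(FPKM + 1), has 40 CG dinucleotides in its 300-base window, more than TGFB1 (28) or LTBP3 (30), against a median of 14 over 34943 windows. No file here measures these promoters, and the runs are a description of sequence only.

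Letters of the motif CAGAC, the box that SMAD proteins bind, were searched on both strands in the 300-base RefSeq windows (250 bases before to 50 after the start) of all 10 genes. They were found in the windows of 7, namely TGFB2, TGFB3, TGFBR1, INHBA, LTBP1, LTBP2 and SMAD7, against 45.3% of all windows. The palindrome GTCTAGAC and the AP-1 letters TGANTCA were found in 0 of the 10, against 0.203 and 7.72% of all windows. The SMAD7 window lies within the annotated gene, and all 250 bases before its start belong to annotated exons. Sequence before the furthest upstream start of SMAD7 was thus not searched. In the windows of TGFB2 and LTBP2, 161 and 141 of the 250 bases belong to annotated exons. None of the 3 motifs contains another. LTBP1, whose groups overlapped in every comparison, held 2 boxes before its start, shown in capitals as the reverse complement GTCTG (chr2:32946703-32946952, plus strand).
LTBP1: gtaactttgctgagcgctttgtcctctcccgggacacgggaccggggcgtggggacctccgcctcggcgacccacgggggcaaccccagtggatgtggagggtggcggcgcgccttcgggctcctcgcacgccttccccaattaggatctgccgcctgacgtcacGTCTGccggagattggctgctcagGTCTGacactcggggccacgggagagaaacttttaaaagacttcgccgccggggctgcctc
A match is a description of letters in this window and says nothing of binding.

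The comparison of MK801 with core asked how treated cells, taken whole, differed from control cells that had not invaded. Both comparisons with core share the same 3 core libraries. Of the 8 genes tested, TGFBR2 alone did not overlap between the groups, being lower in MK801 (1 of 8, beside 18.7% of all genes, 9.89% higher and 8.82% lower). TGFB1 exceeded core by a log2 difference of 0.96 (SE 0.53, limma adjusted p = 0.259) and LTBP3 by 0.68 (SE 0.39, limma adjusted p = 0.267). Limma called 0 of 8 genes and 0% of all genes, as did limma-voom. An unadjusted p under 0.05 was found for 1 of the 8 (TGFBR2) and for 21.2% of all genes. Without MK801 replicate 3, 4 of the 8 passed, beside 50.2% of all genes. In that fit TGFB1 (log2 1.57, limma adjusted p = 0.014) and LTBP3 (1.09, adjusted p = 0.019) rose, and TGFBR1 (-1.31, adjusted p = 0.0098) and TGFBR2 (-0.75, adjusted p = 0.027) fell. Without MK801 replicate 1 instead, 0 of the 8 passed, and the differences were 0.50 for TGFB1, 0.40 for LTBP3, -0.41 for TGFBR1 and -0.32 for TGFBR2. With an equal FPKM total they were 0.57 for TGFB1 and 0.33 for LTBP3. Over the 8 genes, MK801 replicates 1 and 2 were nearest to invasive replicate 1 (root mean square log2 differences of 0.65 and 0.34) and MK801 replicate 3 to core replicates 2 and 3 (0.26 each). With the GC trend removed, TGFBR2 differed from core by -0.48 (SE 0.18), TGFB1 by 0.41 (SE 0.33) and LTBP3 by 0.08 (SE 0.20).

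The third comparison, between MK801 and invasive libraries, asked how treated cells differed from cells that had invaded. SMAD7 was lower and INHBA higher in all 3 MK801 than in all 3 invasive libraries (2 of 8, beside 10.8% of all genes, 5.63% lower and 5.22% higher). LTBP3 was lower by a log2 difference of -0.74 (SE 0.39, limma adjusted p = 0.715) and LTBP1 by -0.44 (SE 0.31, limma adjusted p = 0.844), each with overlap. TGFB1 (-0.24, SE 0.53) and TGFBR1 (0.03, SE 0.39) had differences smaller than their standard errors. Neither limma nor limma-voom called any of the 8 genes or of all genes (0%), and SMAD7 alone of the 8 had an unadjusted p under 0.05, beside 8.26% of all genes. Among the alternatives, 0 of the 8 were called with the GC trend removed (0.625% of all genes), with only the groups compared in addition (0.0338%), or without MK801 replicate 1 (0.355%). The SMAD7 difference was -0.46 (SE 0.24) with the GC trend removed and -0.64 to -0.50 with each library left out in turn.

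**Figure D4:**
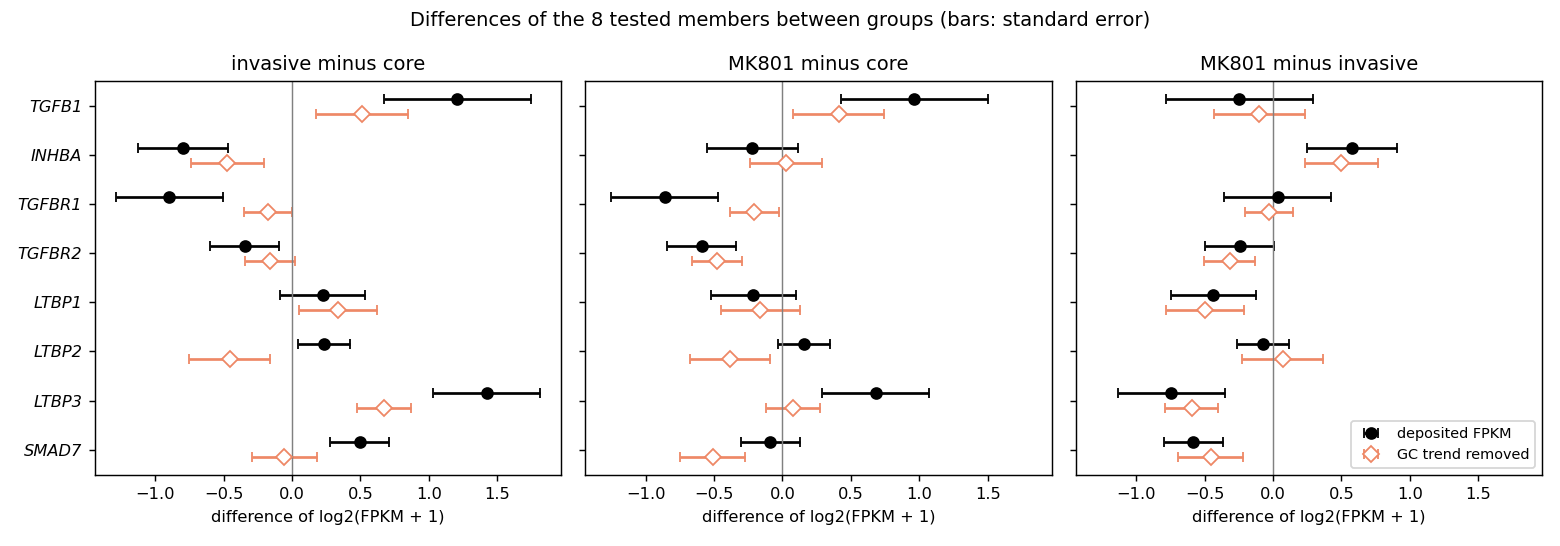
Differences of log2(FPKM + 1) (horizontal axis) with standard errors for the 8 tested genes in the 3 comparisons, from the fit of all 9 libraries. Black circles use the deposited FPKM and orange diamonds the values with each library's GC trend removed. In invasive minus core, TGFBR1 moves from -0.90 to -0.18 and SMAD7 from 0.49 to -0.05. LTBP3 moves from 1.42 to 0.67, TGFB1 from 1.21 to 0.51 and INHBA from -0.80 to -0.47.

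Other genes of the pathway were taken from 6 lists by role, and limma called 0 of their tested members in each comparison. Among proteins of latency and activation, which store or release the ligand, 9 of 14 tested genes were higher and 2 lower in invasive than in core libraries with no overlap (32% and 32.8% of all genes), with a median log2 difference of 0.78 beside -0.02 over all genes tested. ITGB5, a subunit of an integrin that can activate latent TGF-beta, had a mean of 66.0 ± 6.90 FPKM in invasive against 26.3 ± 7.08 in core libraries (log2 1.32, and 0.93 with the GC trend removed). The 2 lower genes were also integrin subunits, ITGAV (2.57 ± 0.470 against 4.04 ± 1.36 FPKM) and ITGB1 (40.8 ± 5.26 against 63.6 ± 3.59 FPKM). With the GC trend removed their log2 differences were 0.28 and 0.02. PLAT, the tissue plasminogen activator, was at 9.70 ± 2.23 against 3.27 ± 1.10 FPKM, and EMILIN1, a matrix glycoprotein that restrains TGF-beta maturation, at 86.9 ± 32.4 against 25.2 ± 8.19 FPKM. ITGB5, PLAT and EMILIN1 were called in the 6 control libraries alone (limma adjusted p = 0.0034, 0.0040 and 0.0041), where 9 members of the list were called higher and 1 lower, beside 52.2% of all genes called. With the GC trend removed the median of the list was 0.31, and 6 were called higher and 1 lower in the control libraries, beside 17.2% of all genes. In MK801 compared with invasive libraries 13 of 14 were lower, 5 of them with no overlap (5.63% of all genes), with a median of -0.56 beside -0.00 over all genes. FBN1, which encodes fibrillin-1, the microfibril protein that LTBPs attach to, was at 4.25 ± 2.02 FPKM in MK801, 9.47 ± 1.18 in invasive and 10.2 ± 2.67 in core libraries. PLAU, the urokinase plasminogen activator, had a mean of 44.5 ± 15.0 FPKM in MK801, 82.8 ± 9.86 in invasive and 40.2 ± 8.32 in core libraries. MK801 libraries pooled both fractions, so treatment and fraction cannot be told apart in the comparison with invasive libraries.

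Of 26 tested genes that TGF-beta commonly induces or represses, 13 were higher and 5 lower in invasive than in core libraries with no overlap. Over all genes 32% were higher and 32.8% lower, and the count in both directions together is close to the 64.8% of all genes. The median log2 difference was 0.49, and 0.11 with the GC trend removed. CCN2, a secreted matrix-associated protein, had means of 45.7 ± 10.8 and 11.0 ± 2.90 FPKM. It did not pass either (log2 1.97, SE 0.28, limma adjusted p = 0.059), and the difference was 1.79 with the GC trend removed. COL1A1 and COL1A2, the chains of type I collagen, were at 247 ± 82.2 against 37.4 ± 17.7 and 163 ± 39.6 against 47.2 ± 19.3 FPKM. In the control libraries alone 12 of the 26 were called higher and 4 lower, beside 52.2% of all genes, and 9 and 2 after GC correction, beside 17.2%. COL1A1, COL3A1 and ACTA2 are also on the fibroblast and pericyte list, whose sum is mostly COL1A1 itself, so the sum is no separate measure of that gene. Over that list, 6 of 8 tested markers were higher and 0 lower in invasive than in core libraries with no overlap, the shared genes among them. The shares of all genes were 32% and 32.8%. In the control libraries alone after GC correction 6 were called higher and 0 lower, beside 17.2% of all genes. Of the markers not shared, PDGFRB, THY1 (5.30 ± 1.39 against 1.46 ± 0.288 FPKM) and LUM (1.39 ± 0.274 against 0.778 ± 0.210 FPKM) were higher, while PDGFRA, FAP and RGS5 had lower means. PDGFRA and FAP overlapped between the groups, and RGS5 was not among the genes tested. With the GC trend removed, log2 differences turned from -0.27 to 0.09 for PDGFRA and from -0.16 to 0.60 for FAP. Those of PDGFRB, THY1 and LUM were then 1.33, 0.75 and 1.22. The part of such cells or states in the result was not tested. In MK801 compared with invasive libraries 10 of the 26 were lower with no overlap and 0 higher, beside 5.63% and 5.22% of all genes (median -0.42), among them COL3A1 at 0.259 ± 0.209 against 2.72 ± 1.09 FPKM and FN1, which encodes fibronectin, at 27.1 ± 11.0 against 100.6 ± 40.9 FPKM. Core libraries had COL3A1 at 0.413 ± 0.172 and FN1 at 26.9 ± 11.9 FPKM, each overlapping with MK801. Compared with core, MK801 libraries had 5 of the 26 higher and 3 lower with no overlap, beside 9.89% and 8.82% of all genes (median -0.07). LOX, which crosslinks collagen, had a mean of 14.6 ± 5.40 FPKM in MK801 and 35.9 ± 5.59 in core libraries. SNAI1, a transcription factor of mesenchymal transition, had means of 11.6 ± 3.47 and 5.02 ± 0.900 FPKM, and ID3, an inhibitor of helix-loop-helix factors, of 36.0 ± 14.6 and 15.5 ± 4.64 FPKM.

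Of 5 signalling SMADs tested, SMAD2, SMAD4 and SMAD5 were lower in invasive than in core libraries with no overlap, and 0 were higher. Over all genes 32.8% were lower and 32% higher with no overlap, 64.8% in either direction. The median was -0.55, and 0.04 with the GC trend removed. SMAD3, which with SMAD2 carries the TGF-beta signal, had the higher mean in invasive libraries (9.26 ± 0.994 against 6.94 ± 1.77 FPKM, log2 0.39), with overlap. SMAD4, the partner shared by all signalling SMADs, was at 3.40 ± 0.603 against 5.85 ± 0.0580 FPKM, and SMAD2 at 1.43 ± 0.168 against 2.56 ± 0.244. Both have about as little GC as TGFBR1 (40.9 and 40.2%), and both differed by close to 0 or above after GC correction (-0.0019 and 0.14). Among 9 other receptors and co-receptors, 1 was higher and 4 lower with no overlap, beside 32% and 32.8% of all genes (median -0.14, and -0.01 with the GC trend removed). In the control libraries alone 1 was called higher and 4 lower, beside 52.2% of all genes called. With the GC trend removed these were 1 and 0, beside 17.2% of all genes. ENG, the co-receptor endoglin, was at 23.0 ± 7.44 against 7.89 ± 1.36 FPKM, and BMPR2, a type II receptor of bone morphogenetic proteins, at 2.83 ± 0.737 against 5.79 ± 0.746. With the GC trend removed their log2 differences went from 1.40 to 0.69 and from -0.84 to -0.05.

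Only 4 of 13 other ligands passed the filter on low values, so the list says little about the rest, of which BMP6, INHBB and LEFTY2 were at 0 in every library. GDF15, a stress-induced member of the family, was at 2.22 ± 0.395 FPKM in invasive, 1.81 ± 1.18 in MK801 and 0.246 ± 0.118 in core libraries. BMP4 was at 9.87 ± 1.09 FPKM in invasive, 6.94 ± 1.02 in MK801 and 5.36 ± 0.734 in core libraries. Both were higher in invasive than in core libraries with no overlap, and BMP2 was lower (0.476 ± 0.160 against 1.07 ± 0.363 FPKM). This makes 2 higher and 1 lower of 4, beside 32% and 32.8% of all genes (median 0.47, and 0.29 with the GC trend removed). GC correction took the log2 differences from 1.37 to 0.70 for GDF15, from 0.77 to 0.43 for BMP4 and from -0.48 to -0.71 for BMP2. Of 13 tested inhibitors and feedback genes, 2 were higher and 7 lower in invasive than in core libraries with no overlap (median -0.34, and -0.22 with the GC trend removed). Over all genes 32% were higher and 32.8% lower, and the count in both directions together is near the 64.8% of all genes. Before GC correction PMEPA1, a feedback inhibitor that TGF-beta induces, was on the same side as SMAD7, at 14.3 ± 0.949 against 9.74 ± 1.92 FPKM. SKIL, another induced inhibitor, was lower in invasive libraries, at 1.86 ± 0.620 against 6.24 ± 1.84 FPKM. Corrected values shrank the log2 difference of PMEPA1 to 0.20 (0.52 before) and that of SKIL to -0.54 (-1.32 before). SMAD7 then stood at -0.05 (SE 0.24), so it no longer shared a side with PMEPA1. BAMBI, a decoy receptor, was at 6.29 ± 1.26 FPKM in MK801, 1.89 ± 0.599 in invasive and 3.35 ± 1.33 in core libraries, with no overlap between MK801 and either control group. Its log2 difference between MK801 and invasive libraries was 1.34 (SE 0.27, limma adjusted p = 0.157), and 1.38 with the GC trend removed.

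**Figure D5:**
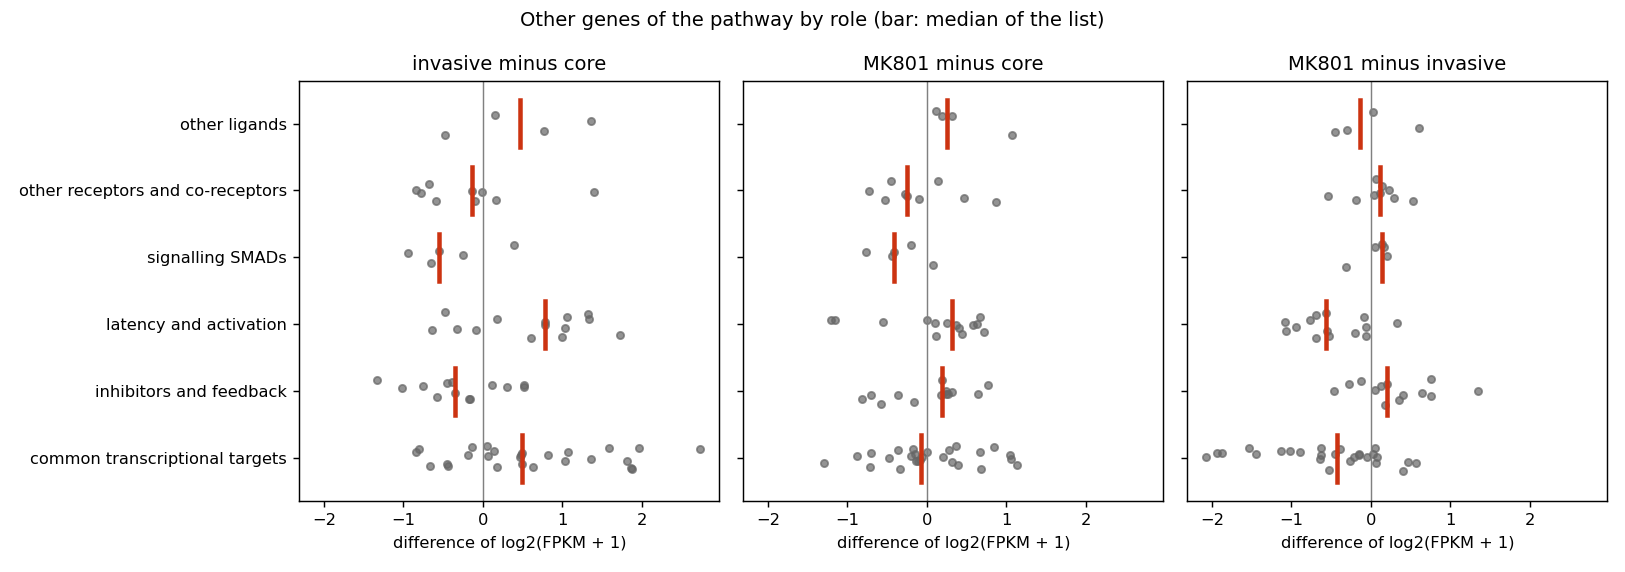
Difference of log2(FPKM + 1) (horizontal axis) of each tested gene (grey points) in 6 lists of pathway genes (rows) in the 3 comparisons, with red bars for list medians. The median of latency and activation genes is 0.78 in invasive minus core and -0.56 in MK801 minus invasive, and that of signalling SMADs is -0.55 in invasive minus core.

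Genes with patterns most like those of 3 members were found by the root mean square difference of log2(FPKM + 1), centred per gene, over the 9 libraries. For TGFB1 they were ZNF580, EHD2 and PPDPF, with differences of 0.10, 0.10 and 0.11 beside a median of 0.82 over 4893 candidates, and with 66.0, 61.4 and 69.6% GC. For INHBA they were SERPINB8, UAP1 and TDG, at 0.15, 0.18 and 0.18 beside a median of 0.65, with 43.5, 42.2 and 42.7% GC. For SMAD7 they were FECH, SLC2A10 and SPOCK1, at 0.12, 0.12 and 0.13 beside a median of 0.51, with 48.3, 52.7 and 47.0% GC. The nearest genes of TGFB1 were thus all rich in GC and those of INHBA all poor in it, as the members themselves are, while those of SMAD7 had less GC than SMAD7. TGFB2 was not among the genes tested and has no such list.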

How the data were processed

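The deposited table holds FPKM per gene for 9 libraries of poly-A selected RNA, with gene lengths. Tools listed in the submitters' processing notes are featureCounts 1.5.0-p3 and HISAT2 2.0.5, on GRCh38, with settings not given in the sources used here. All genes matched GENCODE release 29 coordinates (100%). Multiplied by gene length and divided by the smallest step of its library, 100% of the values came out as whole fragments (tolerance 0.01). The library total behind the authors' FPKM equalled, in each library, the median-of-ratios factor of the recovered fragments times their geometric mean total of 21.0 M, so the deposited values were already on that scale.

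Values were analysed as log2(FPKM + 1). Genes with 1 FPKM in at least 3 libraries (11845, 8 of the 10 described) were tested with limma 3.58.1 in R 4.3.3 (1 mean per group, trend, 6 residual degrees of freedom, Benjamini-Hochberg over all genes, threshold 0.05). The procedure was tested on simulated data with independent genes and the spread of the control libraries in all groups. The wider spread of the MK801 libraries was not simulated. GC trends were loess fits (span 0.3) of each library's deviation from the gene mean over GENCODE transcript GC content. From each list, up to 3 genes with the smallest p per comparison and a mean of at least 1 FPKM were candidates for naming; which of them the text names was chosen after their values were seen. BMP2, BMP6, INHBB, LEFTY2, ACTA2, SMAD3, ITGAV and the markers of glial, fibroblast, pericyte, immune and endothelial cells were also named after their values were seen. The genes and lists were chosen with earlier results of these data known. CCN2 was matched through its current symbol. All 10 genes had a RefSeq promoter window. Alternatives chosen after the data were seen were GC correction with only the groups compared, omission of invasive replicate 2 and MK801 replicate 1 together, an equal FPKM total, FPKM from recovered gene totals, and limma-voom on recovered fragments with median-of-ratios library sizes.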

Additional observations from a re-analysis of the deposited data

How the results depend on the processing

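In the fit of all 9 libraries, limma called 0 genes in each comparison. In invasive minus core it called 2525 genes with the replicate number as a block, 6179 with only the groups compared, 2031 with the GC trend removed and only the groups compared, 14 without both invasive replicate 2 and MK801 replicate 1, and 0 to 4888 with each library left out. Of the 8 genes described that were tested, the same settings called 1 (LTBP3, adjusted p = 0.042), 5, 1, 0 and 0 to 4. In MK801 minus core, leaving out each library gave 0 to 5941 genes and 0 to 4 of the 8. In MK801 minus invasive, 74 genes were called with the GC trend removed, 48 with the replicate block added to it, 4 with only the groups compared added to it, and 0 to 42 with each library left out, and 0 of the 8 under any alternative run. Replicate numbers were not treated as pairing in the main fit. Deviations of same-numbered libraries correlated at over 0.1 in 5 of 9 pairs (median 0.24), against 5 of 18 other pairs (median -0.13). Of the 9 libraries, 5 correlated best with their own number. Column names of same-numbered core and invasive libraries differ only in the letter of the fraction, so these may come from the same device, which the sample titles do not state. Their deviations correlated at -0.007, 0.24 and 0.44 for replicates 1 to 3. A paired fit of the control libraries alone was not run.

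Over the 3 comparisons and 21 alternatives the directions of TGFB1, LTBP3, TGFBR1, TGFBR2 and INHBA held in invasive minus core, as did those of TGFB1, LTBP3, TGFBR1 and TGFBR2 in MK801 minus core and those of INHBA, LTBP3 and SMAD7 in MK801 minus invasive. Not all alternatives could turn a sign. Dropping the filter, adding the block, using only the groups compared or leaving out a library of the group not compared keeps each log2 difference as it is. The settings with the GC trend removed share the same estimate. With the GC trend removed, alone, with the block or with only the groups compared, log2 differences turned to -0.45 for LTBP2 and -0.055 for SMAD7 (invasive minus core), to -0.38 for LTBP2 and 0.028 for INHBA (MK801 minus core), and to 0.070 for LTBP2 and -0.027 for TGFBR1 (MK801 minus invasive). An equal FPKM total moved the median of all genes from -0.02 to -0.30 in invasive minus core and from 0.00 to -0.28 in MK801 minus core. It gave -0.14 for LTBP1 and -0.078 for LTBP2 in the first and -0.16 for LTBP2 in the second, and recovered gene totals gave -0.073, -0.017 and -0.081. Without invasive replicate 2 and MK801 replicate 1, LTBP1 was at -0.047, 0.064 and 0.11 in the 3 comparisons in the order above. With each library left out in turn, the sign turned for LTBP1 in invasive minus core (-0.047 to 0.37), for LTBP1 (-0.45 to 0.064) and SMAD7 (-0.23 to 0.094) in MK801 minus core, and for TGFB1 (-0.71 to 0.36), TGFBR1 (-0.41 to 0.49), TGFBR2 (-0.41 to 0.028) and LTBP2 (-0.16 to 0.016) in MK801 minus invasive, where LTBP1 ranged from -0.67 to -0.16. The cause of these changes was not tested. Limma-voom with TMM factors was not run, and median-of-ratios scaling leaves the deposited values as they are, so it is no separate check. Depth limits TGFB2 and TGFB3, with as few as 15 and 11 fragments.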
